A study of Mus musculus with 2 samples.

Results

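Broad open promoters are the stretches of accessible chromatin at protein-coding genes that extended over 600 bp or more in adult mouse cerebral cortex. They were selected on measured peak widths: overlapping DNase-seq peaks of 2 mice were merged, and a merged region counted where it held peaks of both mice, was at least 600 bp wide and lay within 500 bp of a transcription start site (TSS) of a protein-coding gene in GENCODE release M21. The rule was met by 626 of 15227 shared promoter regions, a share of 4.11%, out of 44745 shared regions in all. They are set against 10228 narrow promoter regions of 150 to 300 bp, chosen by the same widths, and against all shared promoter regions. Because width chose the members, widths, peak heights, footprints and false discovery rates from the same reads are given as a description and support nothing. DNA sequence and gene annotation did not enter the choice except through the distance to a TSS.

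DNase-seq cuts chromatin with DNase I where nucleosomes or bound proteins leave the DNA exposed, and sequences the cut ends. The tissue was the left cerebral cortex of male B6CASTF1/J mice aged 2 months, a cross between C57BL/6J and CAST/EiJ mice. The 2 samples form a single group and are labelled as biological replicate 1 and biological replicate 2, from separate males listed with a common donor record. No second tissue, age, sex or treatment was present. Cortex holds neurons, glia and vessel cells, so a peak is a sum over cell types, and more cells with an open site and a more open site per cell cannot be told apart.

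An active promoter is usually depleted of nucleosomes over a short stretch just upstream of its TSS, where transcription factors and RNA polymerase bind. Many mammalian promoters lie in CpG islands, stretches of GC-rich DNA that keep the CpG dinucleotide lost by methylation elsewhere in the genome. In neurons, many genes for adhesion, guidance and synaptic receptors are long and start in such islands.

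The sequences below come from promoters with the widest and the tallest broad regions, beside promoters with narrow ones. Each is the stretch just upstream of the TSS, outside every annotated exon, read 5′ to 3′ on the gene's strand from the mm10 reference, with every CpG in capitals. Fat3, a giant atypical cadherin, Plxnc1, a semaphorin receptor, and Ppp2r3d, a regulatory subunit of protein phosphatase 2A, stand for the widest regions.
Fat3, chr9:16501286-16501525, minus strand: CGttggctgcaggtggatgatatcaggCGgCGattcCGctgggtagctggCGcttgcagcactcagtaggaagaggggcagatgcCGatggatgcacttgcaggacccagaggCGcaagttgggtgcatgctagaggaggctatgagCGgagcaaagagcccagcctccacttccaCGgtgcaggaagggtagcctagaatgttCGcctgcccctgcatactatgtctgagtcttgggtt
Plxnc1, chr10:94944836-94945060, minus strand: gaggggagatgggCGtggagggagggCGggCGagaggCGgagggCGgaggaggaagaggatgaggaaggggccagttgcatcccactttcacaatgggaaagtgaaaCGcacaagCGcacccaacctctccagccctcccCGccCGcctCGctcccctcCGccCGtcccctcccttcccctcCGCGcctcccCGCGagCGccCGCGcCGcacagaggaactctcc
Ppp2r3d, chr9:124423584-124423823, minus strand: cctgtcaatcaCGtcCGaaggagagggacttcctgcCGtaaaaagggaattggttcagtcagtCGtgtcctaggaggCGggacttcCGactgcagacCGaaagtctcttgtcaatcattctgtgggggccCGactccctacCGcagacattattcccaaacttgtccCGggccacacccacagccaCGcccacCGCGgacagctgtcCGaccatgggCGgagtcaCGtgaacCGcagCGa

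Osbp, which encodes the oxysterol-binding protein, Gsk3b, a kinase of Wnt and insulin signalling, and Sp1, the founding zinc finger factor of GC boxes, stand for the tallest broad regions.
Osbp, chr19:11965701-11965940, plus strand: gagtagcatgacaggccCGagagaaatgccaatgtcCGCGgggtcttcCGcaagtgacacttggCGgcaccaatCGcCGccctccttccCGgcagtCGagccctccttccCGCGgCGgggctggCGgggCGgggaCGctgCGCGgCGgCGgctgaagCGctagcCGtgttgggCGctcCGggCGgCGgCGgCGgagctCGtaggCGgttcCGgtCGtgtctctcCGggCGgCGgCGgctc
Gsk3b, chr16:38088761-38089000, plus strand: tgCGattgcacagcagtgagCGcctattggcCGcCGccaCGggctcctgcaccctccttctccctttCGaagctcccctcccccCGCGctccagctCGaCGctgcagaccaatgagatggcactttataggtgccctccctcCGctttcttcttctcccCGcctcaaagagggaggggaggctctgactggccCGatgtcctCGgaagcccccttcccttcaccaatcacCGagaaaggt
Sp1, chr15:102405903-102406142, plus strand: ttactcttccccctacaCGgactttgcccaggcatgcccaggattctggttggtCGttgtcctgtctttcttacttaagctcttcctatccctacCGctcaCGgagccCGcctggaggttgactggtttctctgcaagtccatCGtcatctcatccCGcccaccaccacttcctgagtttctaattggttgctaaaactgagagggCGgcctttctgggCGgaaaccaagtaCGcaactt

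Bahcc1, a chromatin protein gene, and Fam76a stand for the tallest narrow regions.
Bahcc1, chr11:120232707-120232946, plus strand: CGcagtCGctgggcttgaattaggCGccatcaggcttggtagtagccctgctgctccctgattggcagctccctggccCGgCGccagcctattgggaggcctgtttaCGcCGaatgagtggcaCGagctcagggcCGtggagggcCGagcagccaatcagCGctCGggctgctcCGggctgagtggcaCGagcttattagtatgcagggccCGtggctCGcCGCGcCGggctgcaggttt
Fam76a, chr4:132922559-132922798, minus strand: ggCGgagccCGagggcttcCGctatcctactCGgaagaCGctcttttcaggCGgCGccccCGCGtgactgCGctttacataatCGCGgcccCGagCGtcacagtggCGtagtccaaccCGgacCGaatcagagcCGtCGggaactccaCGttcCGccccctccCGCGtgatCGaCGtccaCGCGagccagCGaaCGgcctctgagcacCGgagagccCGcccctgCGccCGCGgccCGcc

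The CpG content of the broad and the narrow sequences overlapped. The Fat3 stretch held 10 CpGs in 240 bases, with a CpG observed over expected ratio of 0.501 and 58.8% GC. The ratio compares the CpG count with that given by the C and G content. Plxnc1 held 20 CpGs in 225 bases, a ratio of 0.724, and Ppp2r3d 18 CpGs, a ratio of 0.863. Osbp had the most CpGs of the broad stretches printed, 35 with a ratio of 1.09, while Gsk3b had 15 with 0.684 and Sp1 10 with 0.611. The Osbp stretch runs past its open region, which ends at 11965840, so part of these CpGs lie outside it. The whole Osbp region of 600 bp held 36 CpGs with a ratio of 0.775. Of the narrow promoters, Bahcc1 held 19 CpGs with a ratio of 0.736 and Fam76a 35 with a ratio of 1.22. Both narrow stretches also run past their open regions at the TSS end. The sequences of Osbp, Gsk3b and Bahcc1 held the CCAAT box, searched as GCCAAT, and those of Plxnc1, Ppp2r3d, Osbp, Sp1 and Fam76a held the GC box GGGCGG.

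Fat3 had the widest region, 2220 bp on chromosome 9, 16499621 to 16501840 in mm10, reaching 555 bp upstream and 1664 bp downstream of the TSS. Its peak height, in the authors' signal unit, was 1.30 in replicate 1 and 0.790 in replicate 2, below the median of narrow promoters in both. The region merged 3 joined peaks from each replicate, which covered 2180 bases in replicate 1 and 1752 in replicate 2. The widest of them was 1060 bp in replicate 1 and 940 bp in replicate 2.

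Mid1, a microtubule-binding ubiquitin ligase on the X chromosome, had 2000 bp with heights of 2.64 and 1.56 in replicates 1 and 2. Of the 25-mers in this region 78.6% occur more than once in the reference, and what repeated sequence adds to its width was not tested. Slc6a15, a neuronal amino acid transporter, had 1666 bp with heights of 0.971 and 0.858, and Tmem229a had 1532 bp with heights of 1.49 and 0.817. In Tmem229a the first exon of 5157 bp covered most of the region, and the widest replicate 2 peak was 274 bp, against 1480 bp in replicate 1.

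Kmt2c, a histone H3 lysine 4 methyltransferase, had 1519 bp with heights of 1.99 and 0.810. It held the most CpGs of the 10 widest, 199, inside a CpG island span of 2461 bp, and had 10 footprints in replicate 1 and 0 in replicate 2. Plxnc1 had 1500 bp with heights of 1.95 and 0.736. Replicate 1 covered all 1500 bp with a single joined peak, while replicate 2 covered 440 bp in 3 peaks. Nol4, at 1490 bp, showed the same imbalance, with 1490 bp covered in replicate 1 and 320 bp in replicate 2. Jade2, which encodes a PHD finger protein, was the reverse in its widest peak, 720 bp in replicate 1 and 1340 bp in replicate 2.

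Ppp2r3d had broad regions at a pair of its TSSs. The first, chromosome 9, 124422881 to 124424380, was 1500 bp wide, was tall in both replicates at 7.48 and 4.24, and had a CpG ratio of 0.833 at its midpoint. The second, 124439484 to 124440974, was 1491 bp wide, reached 0.648 and 0.446, and had a ratio of 0.235. The same gene thus had a tall, CpG-rich broad region and a low, CpG-poor one of nearly equal width.

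The tallest broad regions were narrower and lay mostly upstream of the TSS. Osbp led with heights of 10.3 in replicate 1 and 10.1 in replicate 2 over 600 bp, chromosome 19, 11965241 to 11965840. The whole region lay upstream, ending 101 bp before the nearest annotated TSS. Khsrp, an RNA-binding regulator of splicing and mRNA decay, followed with 10.1 and 9.97 over 680 bp, also upstream. Gsk3b had 10.5 and 9.16 over 740 bp on chromosome 16, 38088721 to 38089460, made of 2 peaks in replicate 1 and 1 in replicate 2. Sp1 had 8.91 and 9.78 over 740 bp on chromosome 15, 102405521 to 102406260, reaching 622 bp upstream and 117 bp downstream.

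The rest of the 10 tallest had heights of 7.52 to 9.57 in replicate 1 and 7.20 to 8.72 in replicate 2. They belonged to Hdgfl2, Camta1, a calmodulin-binding transcription activator, Csnk1g2, a casein kinase 1 gene, Hnrnpul1, an RNA-binding protein gene, Evi5l, a Rab GTPase regulator, and Srgap2, a regulator of neuronal migration and spine maturation. Their replicate ratios were close to even, with log2 ratios of replicate 2 over replicate 1 between -0.40 and 0.14. For comparison, the 5 tallest narrow regions were at Trpm8, Dynlt1b, Rab11b, Bahcc1 and Fam76a, with heights of 12.3 to 22.9 in replicate 1. Another coding gene also had a TSS within 500 bp of the Trpm8 region, and the same holds for the Srgap2 region. The Dynlt1b region had 67.3% of its 25-mers in several copies.

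As a whole the broad regions were low. Heights in replicate 1 ran from 0.242 to 10.5 with a median of 1.33 in broad regions, against a median of 3.29 in narrow ones. The broad regions' heights in replicate 2 ran from 0.182 to 10.1 around a median of 0.763, against 1.86 in narrow ones. The medians of broad over narrow regions stood at a ratio of 0.404 in replicate 1 and 0.409 in replicate 2. Of the broad regions 511, or 81.6%, fell in the lowest 2 quintiles of height among all shared promoter regions, against 31.6% of narrow regions, and 28, or 4.47%, fell in the highest quintile, against 21.9%.

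**Figure D1:**
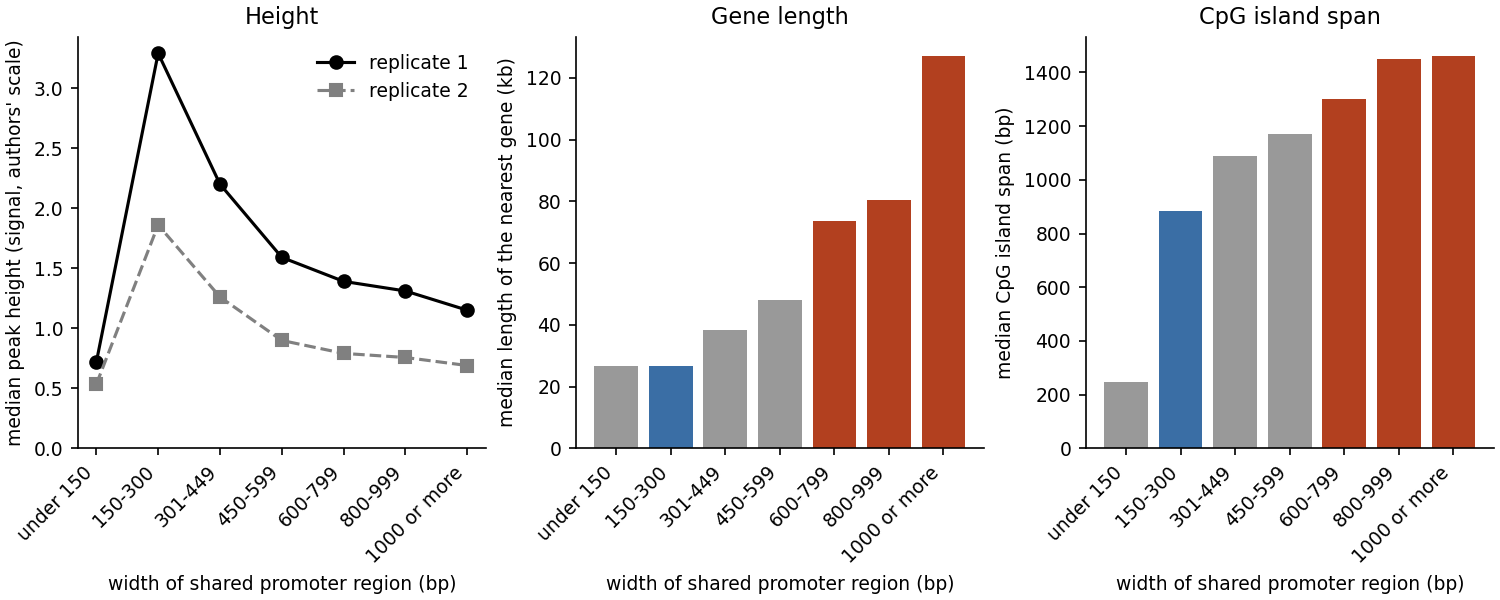
Shared promoter regions by width in bp, lowest to highest. The left panel plots the median peak height in each replicate, in the authors' signal unit, and the bars give the median length of the nearest gene in kb and the median CpG island span in bp, with broad bins in red, narrow in blue and the rest grey. Height falls beyond 300 bp, to 1.15 in replicate 1 at 1000 bp or more, while gene length reaches 127 kb there.

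Broad regions reached further into the gene than narrow ones. The median extent was 310 bp upstream and 426 bp downstream of the TSS in broad regions, against 150 and 90 bp in narrow ones. The excess downstream was larger in the 330 broad regions with a peak of 600 bp or more in replicate 1 alone, 282 and 489 bp. In the 53 with such a peak in both replicates it was 336 and 545 bp. The 91 with one in replicate 2 alone had 352 and 379 bp, and the 152 with one in neither 322 and 346 bp. More of the region lay downstream than upstream in 369 of 626 broad regions (58.9%, exact 95% Clopper-Pearson interval 55.0% to 62.8%), against 26.1% of narrow regions (25.2% to 27.0%). At 500 bp downstream of the TSS 49.2% of broad promoters lay under a replicate 1 peak and 28.9% under a replicate 2 peak, against 18.1% and 12.2% of narrow promoters. At the TSS itself the values were 82.1% and 62.8% in broad, against 82.3% and 78.4% in narrow promoters. A coding TSS lay inside the region in 75.2% of broad and 76.7% of narrow regions.

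**Figure D2:**
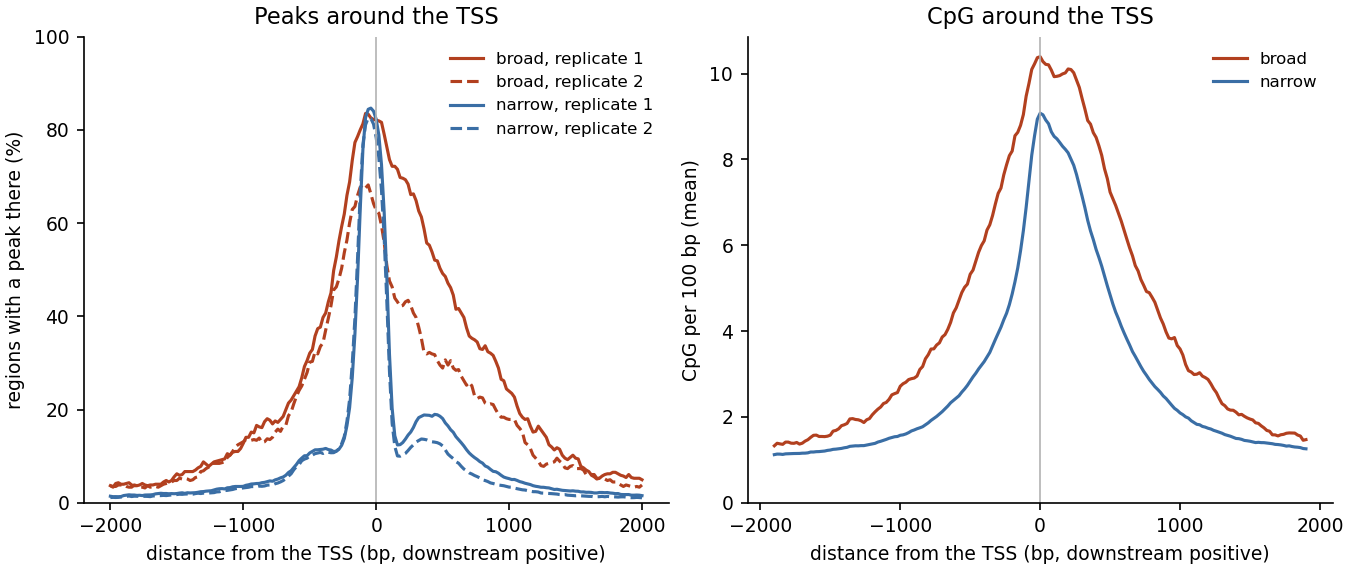
Peaks and CpG by distance from the TSS in bp, downstream positive, for 626 broad (red) and 10228 narrow regions (blue). The left panel gives the share of regions with a peak at each distance in replicate 1 (solid) and replicate 2 (dashed), and the right panel the mean CpG per 100 bp. At 250 bp downstream 67.1% of broad promoters lie under a replicate 1 peak, against 14.7% of narrow ones.

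Direction changed with height. In the lowest height quintile the 268 broad regions reached a median of 214 bp upstream and 588 bp downstream, and 71.3% lay more downstream. In the highest quintile the 28 broad regions reached 560 bp upstream and 120 bp downstream, and 28.6% lay more downstream. The order in narrow regions was the same, with 45.1% more downstream in the lowest quintile and 14.8% in the highest.

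The first exon was 600 bp or longer at 126 of the 626 broad regions, 20.1%, against 10.2% of narrow regions, with a median length of 276 and 200 bp. The TSS of a long noncoding RNA lay inside 9.42% of broad regions (7.25% to 12%), against 5.18% of narrow ones (4.76% to 5.63%), a count that a wider region can reach more easily. Regions near TSSs of 2 or more coding genes were less frequent, 40 of 626 or 6.39% (4.60% to 8.60%), against 10.8% of narrow regions (10.2% to 11.4%). The difference, -4.40 percentage points, was -8.49 with regions from replicate 2 alone. Coding TSSs on both strands lay within 500 bp of 5.59% of broad regions, against 9.61%.

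CpG islands were longer around broad regions. A CpG island span, joined from windows of 200 bp with over 50% GC and a CpG ratio over 0.6, had a median of 1350 bp at broad regions and 882 bp at narrow ones. Some island overlapped 97.4% of broad regions (95.9% to 98.5%), against 88.5% of narrow ones (87.9% to 89.1%). It covered the whole region in 62.3% of broad and 77.3% of narrow regions. A wider region can meet an island, or the longest of several, more easily and be covered whole less easily. A broad region held a median of 68 CpGs, against 19, which comes to 9 and 8 per 100 bp.

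In a fixed window of 300 bp at the midpoint, broad regions had a median of 69.0% GC, against 63.0% in narrow regions. The median CpG ratio there was 0.836 (quartiles 0.684 and 0.958) in broad, against 0.786 (0.605 and 0.920) in narrow regions, so the ranges overlapped widely. The difference of medians, 0.0502, was 0.00672 with regions taken from replicate 2 alone. This order depended on height. In the lowest quintile the median ratio was 0.821 in broad and 0.539 in narrow regions, in the second 0.839 and 0.652. In the fourth quintile it was 0.841 in 22 broad regions and 0.843 in narrow ones, and in the highest quintile 0.737 in broad and 0.871 in narrow regions, the opposite order.

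Several promoter motifs were scarcer in broad regions. In the midpoint window, on either strand, the ETS motif CCGGAAG was in 6.23% of broad, 18.5% of narrow and 16.2% of all shared promoter regions. The CCAAT box GCCAAT, bound by NF-Y, was in 7.83%, 20.7% and 19.2%. NRF1's core CGCATGCG was in 0.479%, 4.37% and 3.83%, and the cAMP response element TGACGTCA in 0.639%, 4.23% and 3.53%. The part of the ZNF143 site ACTACAA was in 0.799%, 4.35% and 3.71%, and the YY1 motif AAGATGGC in 2.88%, 5.68% and 4.77%. The exact intervals of broad and narrow regions did not overlap for any of these 6 motifs. Here and below the intervals cover counting error over regions only, and regions are not replicates, so they are no test of a difference. Nor do they allow for the height mix of the sets, by which the shares are split below.

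The GC box GGGCGG, bound by SP and KLF factors, was in 66.8% of broad regions at the midpoint (62.9% to 70.5%), in 63.6% of narrow ones (62.7% to 64.6%) and in 65.5% of all regions. Over all heights these intervals overlapped, but in the low quintiles, where most broad regions lie, the GC box was more frequent in broad regions. Its share was 62.7% of broad and 42.3% of narrow regions in the lowest height quintile, and 68.7% and 52.1% in the second. In the highest quintile it was in 21 of 28 broad regions and in 78.3% of narrow ones. The palindromic E-box CACGTG was in 6.07%, 10.7% and 10.3%, the AP-1 site TGANTCA in 2.24%, 4.69% and 4.67%, and the TATA box TATAAA in 2.40%, 4.21% and 4.03%. The proneural E-box CAGATGG was in 3.19%, 3.90% and 3.83%, and the EGR motif GCGTGGGCG in 1.28%, 1.48% and 1.54%. A match is a run of letters and not a bound site. At the midpoint the intervals also lay apart for the palindromic E-box and AP-1, and overlapped for the TATA box, the proneural E-box and EGR. No pair of these motifs shares the same letters, but a CpG-rich run can hold several that overlap.

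Because the midpoint of a broad region often lies inside the gene, the window was also centred on the TSS. There the ETS motif was in 7.19% of broad and 18.6% of narrow regions, the CCAAT box in 9.27% and 19.5%, and NRF1 in 1.44% and 4.16%. The GC box was in 71.4% of broad (67.7% to 74.9%) and 65.5% of narrow regions (64.5% to 66.4%) there, with intervals apart. AP-1, in 3.04% of broad and 3.83% of narrow regions at the TSS, had overlapping intervals in that window. The proneural E-box, in 1.44% and 3.48%, had intervals apart. At least 1 of the 6 motifs named first (ETS, CCAAT, NRF1, cAMP response element, ZNF143 and YY1), grouped after their values were seen, was in 17.4% of broad and 47.1% of narrow regions at the midpoint, and in 21.7% and 46.5% at the TSS. The difference varied with height. In the lowest height quintile the ETS motif was in 5.97% of broad and 5.50% of narrow regions at the midpoint, in the second quintile in 14 of 243 broad and 173 of 1726 narrow regions, and in the third in 7.69% and 19.6%. The YY1 motif was in 1.49% of broad and 1.66% of narrow regions in the lowest quintile, and in the second in 4.53% of broad and 2.38% of narrow regions, the opposite order to that over all heights. In the highest quintile the CCAAT box was in 12 of 28 broad regions, 42.9%, and in 35.2% of narrow regions.

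**Figure D3:**
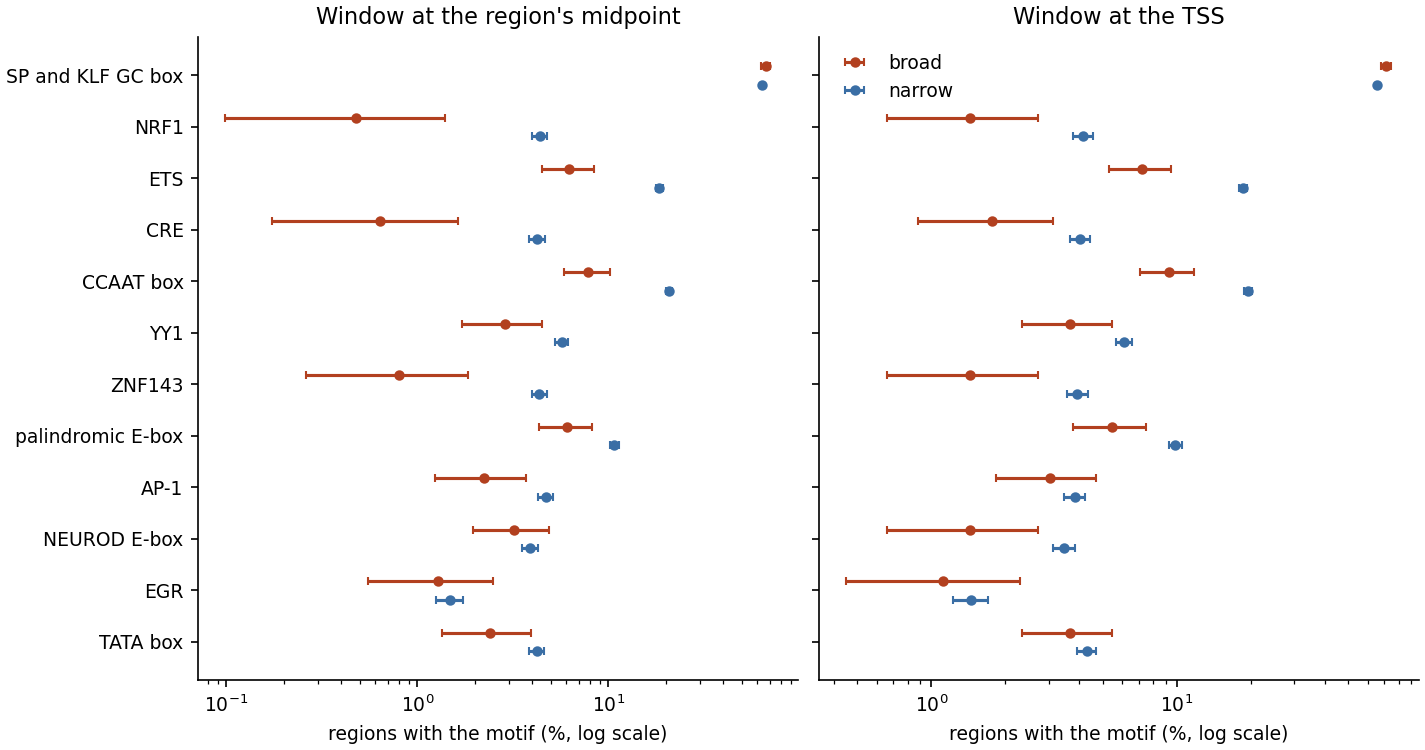
Share of regions, in percent on a log scale, with each of 12 motifs in a window of 300 bp, for broad (red) and narrow regions (blue), with exact 95% intervals. The ETS share is 6.23% against 18.5% at the midpoint and 7.19% against 18.6% at the TSS, while the GC box share is 66.8% against 63.6% at the midpoint and 71.4% against 65.5% at the TSS.

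Genes with broad regions were long. The nearest gene had a median length of 79.5 kb at broad regions and 26.7 kb at narrow ones, and 30.2 kb over all shared promoter regions. It exceeded 100 kb at 273 of 626 broad regions, 43.6% (39.7% to 47.6%), against 15.8% of narrow regions (15.1% to 16.5%). In the lowest height quintile the medians were 102 and 42.1 kb, in the second 82.6 and 28.9 kb, and in the third 56.5 and 25 kb. In the fourth they were 24.9 and 23.2 kb and in the highest 29.5 and 24.6 kb, so the gap was small where promoters were tall.

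Counted by gene, 640 of 12293 genes with a shared promoter region had a broad one, a share of 5.21%, and 7736, or 62.9%, had a narrow region as their widest. Over deciles of gene length the share with a broad region was 3.98% in the shortest decile, 1.79% in the fourth, 5.53% in the eighth, 8.54% in the ninth and 15.8% in the longest, genes of 145 kb or more (13.8% to 17.9%). The share with a narrow region was 69.9% in the shortest decile and 42.6% in the longest. Whether the number of annotated TSSs per gene moves with this was not tested.

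**Figure D4:**
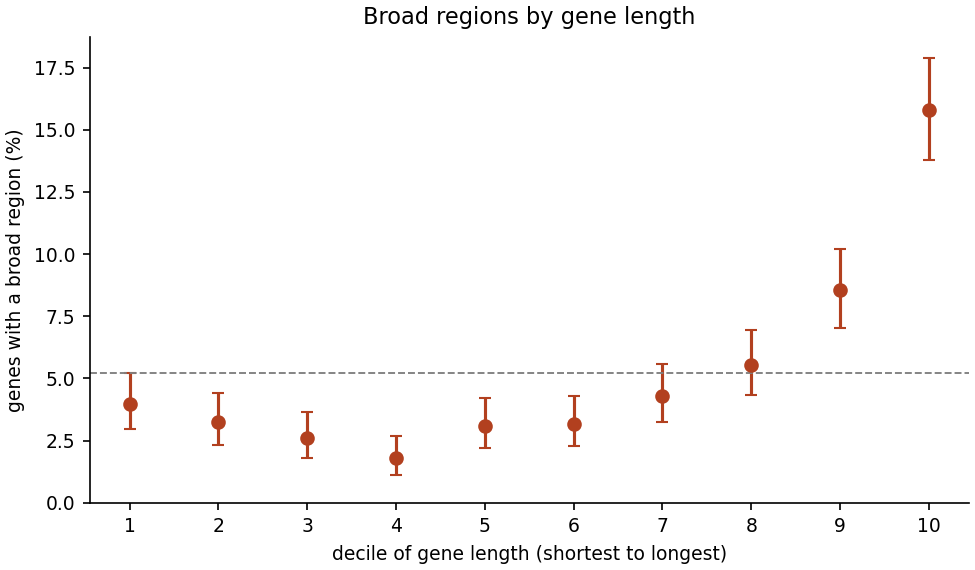
Share of genes with a broad promoter region, in percent, over deciles of gene length from shortest to longest among 12293 genes with a shared promoter region. Points are shares with exact 95% intervals and the dashed line is the share over all of them, 5.21%. The longest decile stands at 15.8% and the fourth at 1.79%.

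Gene lists were read against the 5.21% over all genes with a shared promoter region. Among neuronal lists, 4 of 20 genes of the postsynapse and glutamate receptor list had a broad region, with a median gene length of 212 kb. The tallest were Grin2a, an NMDA receptor subunit, at 1.82 and 1.28 in replicates 1 and 2 over 600 bp, Grm5, a metabotropic glutamate receptor, at 1.83 and 0.797 over 700 bp, and Shank2, a postsynaptic scaffold, at 1.16 and 0.858 over 686 bp. Grin1 and Shank3, of the same list, had narrow regions with heights of 4.06 and 2.29, and of 3.20 and 2.04.

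Of the voltage-gated ion channels 3 of 20 had a broad region, 15.0%. Kcnd2, a transient potassium channel, had 840 bp with heights of 1.54 and 1.20, Cacna1b, the N-type calcium channel, 920 bp with 1.42 and 0.763, and Kcna1, a delayed rectifier, 608 bp with 1.07 and 0.736. The cortical excitatory neuron list had 3 of 11, 27.3%: Mef2c, a transcription factor of activity-dependent genes, at 2.10 and 1.14, Cux2, of upper layers, at 1.42 and 0.635, and Tle4, of deep layers, at 1.18 and 0.614. The inhibitory neuron list had 2 of 11, Dlx5 with 1.20 and 1.35 and Maf with 0.743 and 0.432, while 9 of its 11 were narrow. Of the pan-neuronal genes 1 of 18 was broad, Elavl4, a neuronal RNA-binding protein gene, at 1000 bp with 1.40 and 0.628.

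Of the astrocyte list 1 of 12 genes had a broad region, 8.33%, the glutamate transporter Slc1a2, at 740 bp with 1.68 and 0.925. The oligodendrocyte lineage had 0 of 9, microglia 0 of 3 and endothelial and mural cells 0 of 2. All 4 of these lists were too small to set against 5.21%. The same holds for the neuronal lists above, with 11 to 20 genes with a shared promoter region each. Over the defining markers, 2 of 5 for excitatory neurons had a shared promoter region (Camk2a and Neurod6), 2 of 3 for oligodendrocytes (Mbp and Mog) and 1 of 3 for astrocytes (Slc1a2). The 3 markers each of inhibitory neurons, microglia, endothelium and other tissues had none.

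Several lists of regulators had shares above 5.21%, but on 2 to 5 genes each, too few to set against it. Median gene length was 9.25 kb in the feedback list, 62.4 kb in chromatin regulators and 26.9 kb in SP and KLF factors. It was 27.7 kb in the ubiquitin and trafficking list and 17.4 kb over all protein-coding genes. What length adds to these shares was not tested. Of the feedback and stress signalling genes 5 of 24, 20.8%, had a broad region, among them Trib1, a pseudokinase, at 1160 bp with 3.07 and 2.42, Gadd45g, a growth arrest gene, at 730 bp with 0.958 and 0.709, and Spry1, an inhibitor of receptor tyrosine kinase signalling, at 660 bp with 1.08 and 0.594. Of the chromatin regulators 4 of 32 were broad, 12.5%: after Kmt2c the tallest were Arid1a, a chromatin remodelling subunit, at 780 bp with 1.50 and 0.858, and Tet2, a methylcytosine oxidase, at 976 bp with 1.40 and 0.729. Of the SP and KLF factors 2 of 17 were broad, Sp1 and Sp3, the second with 2.00 and 1.18. Of the ubiquitin and vesicle trafficking genes 3 of 26 were broad, Cltc, the clathrin heavy chain, at 6.36 and 4.07, Cul1 at 1.82 and 0.655 and Ube2e1 at 0.794 and 0.419.

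The ribosomal, proteasome and respiratory chain lists had broad shares below 5.21% and narrow shares above the 62.9% over all genes. Their broad counts, 0 or 1 gene each, are too few to set against 5.21%. Of the cytosolic ribosomal protein genes 1 of 79 had a broad region, 1.27%, and 79.7% a narrow one. The exception, Rps19, had 700 bp with heights of 6.00 and 4.69. The proteasome list had 0 of 31 broad and 90.3% narrow, and the respiratory chain list 1 of 30 broad, Ndufv2 at 4.34 and 1.83, and 73.3% narrow. In the next 4 lists the narrow share was below 62.9%, and the broad counts were 0 or 1. Splicing and RNA-binding genes had 0 of 32 broad and 59.4% narrow, and the immediate early genes, which neurons switch on with activity, 0 of 25 and 48.0%. The circadian clock list, with a median gene length of 38.0 kb, had 1 of 18 broad, Rora with 1.17 and 0.648, and 38.9% narrow. The chaperones had 1 of 18 broad, Hsp90ab1 with 1.86 and 1.03, and 44.4% narrow. Median gene length was 3.24 kb in the ribosomal list and 13.3 kb in the proteasome list, so list and length cannot be told apart here. The Hox and the liver and muscle lists had no shared promoter region.

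Symbol families picked after the member names were seen describe the members further. The share over all genes with a shared promoter region was 5.21%, and families of 10 to 28 such genes are too small to set against it. Adhesion GPCRs had a broad region at 4 of 10 genes with a shared promoter region, Adgrb3 and the latrophilins Adgrl1, Adgrl2 and Adgrl3. Contactins and contactin-associated proteins had 3 of 11 (Cntn1, Cntn4, Cntnap2), cadherins 7 of 28, semaphorins and plexins 6 of 24, phosphodiesterases 6 of 16, GABA-A receptor subunits 3 of 10 and fibroblast growth factors and receptors 5 of 13. Ephrins and Eph receptors had 3 of 15 (Efna5, Epha5, Epha7). Ubiquitin ligases and conjugating enzymes had 16 of 107, or 15.0%. Zfp and Zbtb zinc finger genes stood near the background with 16 of 364, 4.40%. Mitochondrial ribosomal protein genes had 2 of 78, 2.56%, too few to set against it. Solute carriers had 14 of 208, 6.73%, and ubiquitin-specific proteases 3 of 44, 6.82%. Forkhead genes had 1 of 19, 5.26%, replication-dependent histone genes 2 of 57, 3.51%, and RAB GTPases 1 of 52, 1.92%. The remaining families looked at had shares of 12.7% to 23.5%. Median gene length was 410 kb in contactins, 120 kb in cadherins, 106 kb in phosphodiesterases and 88.6 kb in GABA-A receptor subunits. It was 73.3 kb in adhesion GPCRs, 39.7 kb in semaphorins and plexins, 28.4 kb in ephrins and 20.4 kb in fibroblast growth factors. Ubiquitin ligases had 28.5 kb, zinc finger genes 17.8 kb and mitochondrial ribosomal protein genes 7.90 kb. What length adds to these shares was not tested.

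Some genes had several broad regions. By nearest gene, 24 genes had more than 1, led by Acap3 with 4 and by Adgrl3 and Jade2 with 3 each. The 4 regions at Acap3, an Arf GTPase regulator, lay within chromosome 4, 155901601 to 155906660, and were among the lowest members, with heights of 0.242 to 0.350 in replicate 1 and 0.182 to 0.230 in replicate 2. Their CpG ratios at the midpoint ran from 0.0988 to 0.426, far below the broad median of 0.836. The 3 Adgrl3 regions, on chromosome 5, had heights of 0.876 to 1.39 in replicate 1 and 0.662 to 0.837 in replicate 2, and CpG ratios of 0.509 to 0.734. Myc had 2 regions side by side, 826 and 620 bp wide, which touched without overlapping and so were not merged.

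Over the 626 broad regions, heights of replicates 1 and 2 had a Spearman correlation of 0.80 and their covered bases a Spearman correlation of -0.18. Regions share their library and were chosen by joint width, which uses the covered bases, so these are descriptions. Replicate 1 was higher in 596 of 626 broad regions, 95.2%, against 94.0% of narrow ones. It covered more bases in 68.4% of broad regions, against 33.7% of narrow ones. The median number of bases under peaks in broad regions was 648 in replicate 1 and 508 in replicate 2, and the stretch covered in both had a median of 382 bp and a lowest value of 18 bp.

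A single peak of 600 bp or more was present in both replicates in 53 broad regions, 8.47% (6.41% to 10.9%). It was present in replicate 1 alone in 330, in replicate 2 alone in 91 and in neither in 152, or 24.3% (21% to 27.8%), whose width came from the offset or chaining of peaks. The 53 regions wide in both had a median gene length of 66.6 kb, a CpG ratio of 0.820 and any of the 6 motifs in 24.5% at the TSS and 15.1% at the midpoint. The 152 wide in neither had 60.4 kb, 0.805, and 17.8% at the TSS and 24.3% at the midpoint, so the order of the motif shares turned with the window. A deposited interval stood alone in each replicate in 121 broad regions, 19.3%, against 99.9% of narrow ones.

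**Figure D5:**
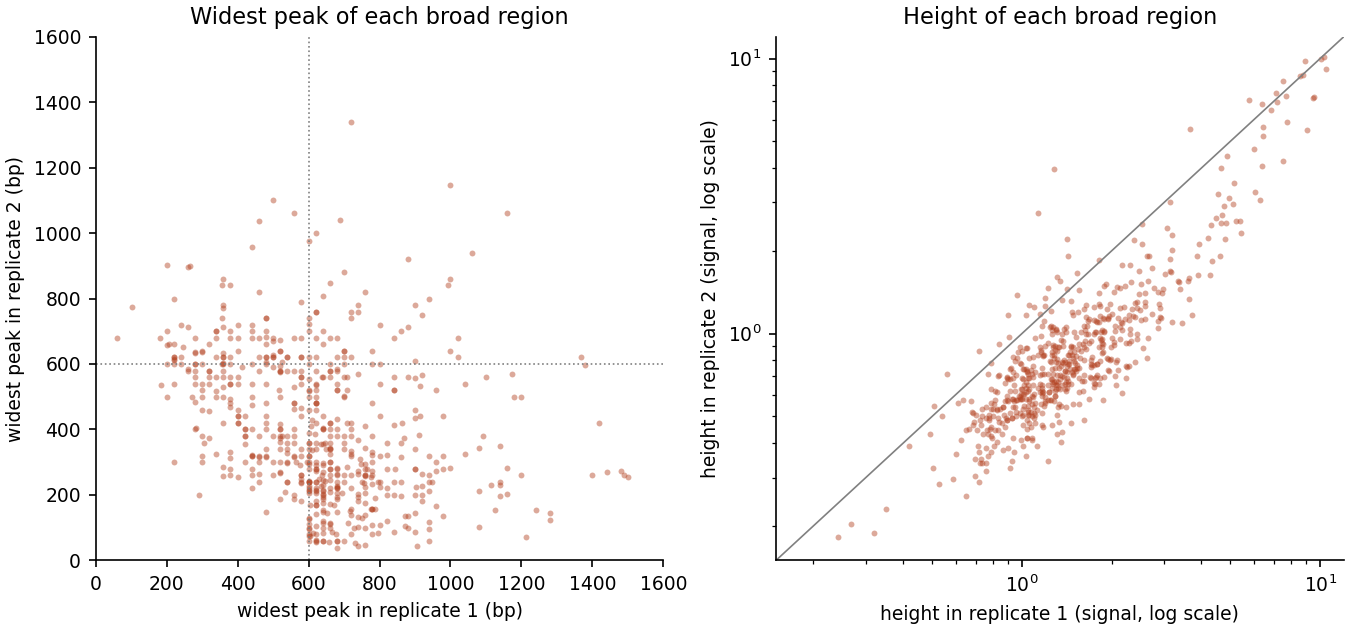
Each point is 1 of the 626 broad regions. The left panel plots the widest peak in replicate 2 against that in replicate 1, in bp, with dotted lines at 600 bp, and the right panel the heights in the authors' signal unit on log axes, with a line at equal values. In 53 regions both widest peaks reach 600 bp, and 596 regions are higher in replicate 1.

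Width was then measured in the replicate that the choice did not use. Of 20547 replicate 1 peaks at coding promoters 559 were 600 bp or wider, 2.72%, and 52 of those overlapped a replicate 2 peak of 600 bp or more, 9.30% (7.03% to 12%). For the replicate 1 promoter peaks of 150 to 300 bp the share was 0.367% (0.272% to 0.483%). No replicate 2 peak at all overlapped 31.7% of the wide peaks, against 16.6% of the narrow ones. Their widest replicate 2 peak had a median of 203 bp, counting absent ones as 0, against 220 bp for the narrow peaks. Where a replicate 2 peak was present the order was the opposite, with medians of 280 bp for the wide and 240 bp for the narrow peaks. Over all of them, 30.4% of the wide and 7.62% of the narrow peaks overlapped a replicate 2 peak of more than 300 bp. A wider peak can meet a peak of the other replicate, and a wide one, more easily, and this holds in either direction. In the other direction, 146 of 17417 replicate 2 promoter peaks, 0.838%, were 600 bp or wider. Of these 52 overlapped a replicate 1 peak of 600 bp or more, 35.6% (27.9% to 44.0%), against 1.46% of narrow ones, and the widest replicate 1 peak had a median of 480 bp, against 220 bp. No replicate 1 peak overlapped 1.37% of the wide replicate 2 peaks, against 6.38% of the narrow ones. That order is the opposite of the first direction.

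Log2 height ratios of replicate 2 over replicate 1 had a median of -0.82 in broad and -0.76 in narrow regions. The highest were at the replication-dependent histone genes Hist1h2bb, with heights of 1.28 in replicate 1 and 3.96 in replicate 2 and a log2 ratio of 1.63, and Hist1h2be, with 1.13 and 2.75 and a ratio of 1.28. Cstad followed with 1.42 and 2.21 and a ratio of 0.65. The lowest were at Slc35a3, with 2.16 and 0.608, Rbms1, with 1.22 and 0.344, and Fbxo11, an F-box ubiquitin ligase subunit, with 1.35 and 0.405, at log2 ratios of -1.83, -1.83 and -1.73. Replicate 2 covered 44 of the 740 bp at Fbxo11 and 99 of the 600 bp at Rbms1. With 1 library in each replicate no error can be given for these ratios.

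Footprints, short protected stretches inside open chromatin that the authors deposited as positions, were more numerous per region and sparser per length. In replicate 1 a broad region held 8 at the median, against 4 in narrow ones, and in replicate 2 it held 5, against 4. Per kb they held 11.3 and 6.55, against 17.9 and 15.4. The median of the widest footprint was 18 bp in broad and 23 bp in narrow regions in replicate 1, and 13 bp and 20 bp in replicate 2. No footprint was listed in 5.91% of broad regions in replicate 1 and 10.7% in replicate 2, against 3.20% and 4.82%. In the highest height quintile the densities were 18.3 per kb in broad and 20 in narrow regions, and in the lowest 5.76 and 9.28, as means of both replicates. Stretches with a false discovery rate under 0.001 covered 100% of a broad region at the median in replicate 1 and 87.4% in replicate 2. For narrow regions the median was 100% in both replicates.

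Promoters held most of the widest open chromatin. Of 846 shared regions of 600 bp or more 74.0% were the broad promoters, and of 29518 shared regions elsewhere 220, or 0.745%, were that wide. A shared distal region, over 2000 bp from every TSS, lay within 50 kb of 58.8% of broad regions (54.8% to 62.7%), against 65.4% of narrow ones (64.4% to 66.3%). Over the autosomes the share of promoter regions that were broad ran from 2.42% on chromosome 11 to 5.98% on chromosome 13, with 3.10% on the X.

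Regions next to the width limit show how it divides close values. Inside it, Phf3, Kif1a, a motor of synaptic vesicle precursors, and Srgap2 had 600 bp each, with heights of 3.17 and 1.67, 1.17 and 0.750, and 7.68 and 7.29. Outside it, Mcm9 had 599 bp, Rims1, an active zone scaffold, 598 bp and Fermt2, an integrin activator, 597 bp, with heights of 0.984 and 0.500, 1.64 and 0.716, and 1.35 and 0.574. There were 78 regions of 600 to 619 bp and 90 of 580 to 599 bp, and 57 measured exactly 600 bp.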

How the data were processed

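DNase-seq of 2 cortex samples was analysed from the deposited files. Peak heights are a signal in the deposited peak lists, made from each replicate's own filtered alignment on mm10, per the notes deposited with the files. The scaling, aligner, callers and depth were not given in the sources used here. A deposited track of false discovery rates (q-values) lists stretches under 0.05, and the deposited footprints carry positions only. For each replicate the peak list with fewer rows was used. Overlapping intervals of a list were joined (63928 and 76440 peaks left), and peaks of both replicates overlapping by 1 bp or more were merged. Peaks lay within the reference lengths on 21 of 21 chromosomes. TSSs were those of all transcripts of 21938 protein-coding genes in GENCODE M21, and a region took the name of the coding gene with the TSS nearest its midpoint. Sequence came from GRCm38.p6 through pysam 0.24.0, with numpy 2.4.6, pandas 2.3.3 and scipy 1.17.1. The functions were tested on simulated data and recovered every planted value in 6 of 6 checks. All 557 genes of 23 lists matched the annotation. The housekeeping list is not reported here. The members and lists were chosen with earlier results of these data known. Regions named are the 10 widest, the 10 tallest, those at the width limit, the 5 tallest narrow ones, the extreme replicate ratios and the tallest of each list. Acap3, Adgrl3, Myc and the families were chosen after their values were seen. No test was run: there is a single group, and regions are not replicates. Intervals are exact and cover counting error over regions only. Alternatives concerned the peak list, width limit, TSS window, sequence window, single intervals, each replicate alone and height quintiles.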

Additional observations from a re-analysis of the deposited data

How the results depend on the processing

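The number of broad promoters depended on nearly every choice. It was 1330 (7.10% of shared promoter regions) with the longer peak lists, 356 (2.34%) at 700 bp or more, 1207 (7.93%) at 500 bp or more, 87 (0.571%) when only bases covered in both replicates counted, and 121 (0.795%) with a single deposited interval in each replicate. With 1 replicate alone it was 146 (0.838%) without replicate 1 and 559 (2.72%) without replicate 2.

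The height ratio of broad over narrow regions was 0.416, moved to 0.513 with bases covered in both and ran from 0.404 to 0.488 with 1 replicate alone. The CpG ratio difference, broad minus narrow, was 0.0502, and 0.00672 without replicate 1 and 0.0562 without replicate 2. By height quintile, alternatives chosen after seeing the data, it was 0.282, 0.187, 0.120, -0.00178 and -0.134 from lowest to highest. The sets were thus nearly level in the fourth quintile, and the order was reversed in the highest, which held 28 broad regions. The cause was not tested. The difference in the share with TSSs of 2 or more coding genes was -4.40 percentage points, -6.58 at 700 bp or more and from -8.49 to -5.66 with 1 replicate alone.

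Footprints per kb, broad over narrow, stood at 0.526. The ratio was 0.383 with the longer lists, 0.492 at 700 bp, 0.560 at 500 bp, 0.623 with bases covered in both, 0.476 with single intervals, and 0.587 to 0.633 with 1 replicate alone. It was 0.621, 0.714, 0.771, 0.836 and 0.913 over the height quintiles, and 1.69, the opposite order, per region. The median width in the replicate not used was 203 bp in replicate 2, counting absent peaks as 0, or 280 bp where a peak was present, and 480 bp in replicate 1. The gene length ratio was 2.97 and kept its direction in every quintile, at 1.08 in the fourth and 1.20 in the highest. The difference in regions with any of the 6 motifs was -29.7 percentage points and ran from -26.8 to -5.65 over the height quintiles.

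No paired analysis was possible because there is a single group and no comparison between groups. Depth is unknown, so how far it limits widths and footprints cannot be given.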
